A study of Mus musculus with 7 samples.

Results

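The 10 genes described here, Sptlc1, Sptlc2, Cers2, Cers4, Degs1, Degs2, Fa2h, Ugt8a, Gal3st1 and Sgms1, encode enzymes that make ceramide and turn it into sphingomyelin, galactosylceramide and sulfatide. They were listed by name for their place in the pathway, with earlier results of these data known, out of 49315 genes in the count tables. All 10 were found there, and all 10 passed the filter on low counts that left 18352 genes to be tested. RNA came from cultured primary oligodendroglia of newborn mouse brain after 6 days of differentiation in a medium with thyroid hormone. The study compared 4 wildtype control libraries, labelled Klf13-wt, with 3 Klf13-knockout libraries, labelled Klf13-ko, to find which genes depend on the transcription factor KLF13. The deletion was constitutive and not limited to the oligodendrocyte lineage. Pups were of both sexes, and precursors were shaken off mixed glia and depleted of microglia before differentiation. Neither the labels nor the methods say whether pups were pooled for a culture, and with no more than biological replicate numbers given, the p-values measure the spread between these libraries.

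Sphingolipids are built on ceramide, which cells assemble in the endoplasmic reticulum. Serine palmitoyltransferase joins serine and a fatty acid, ceramide synthases add a second fatty acid, and a desaturase then completes ceramide. In oligodendrocytes much of the ceramide receives a galactose and a part of that product a sulfate group, and the resulting galactosylceramide and sulfatide are hallmark lipids of myelin. Sphingomyelin, the other main product, is a lipid of cell membranes in general.

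For 4 of the genes, the 250 bases before the RefSeq start site (GRCm38.p6) lay wholly outside the gene as the count tables place it, and these are shown because KLF proteins bind CACCC and GC boxes. They belong to the first step of the pathway (Sptlc2), to both galactolipid enzymes (Ugt8a and Gal3st1) and to a gene that was not lower in the knockout (Degs2). Capitals mark matches, on either strand, to the KLF motif used in the study's methods, which is an A or a C followed by C, then by G, A or T, and then by CCC; overlapping matches were each counted and run together in print. The windows are chr12:87388356-87388605 (minus strand) for Sptlc2, chr3:125938653-125938902 (minus) for Ugt8a, chr11:3983386-3983635 (plus) for Gal3st1 and chr12:108702307-108702556 (minus) for Degs2.
Sptlc2: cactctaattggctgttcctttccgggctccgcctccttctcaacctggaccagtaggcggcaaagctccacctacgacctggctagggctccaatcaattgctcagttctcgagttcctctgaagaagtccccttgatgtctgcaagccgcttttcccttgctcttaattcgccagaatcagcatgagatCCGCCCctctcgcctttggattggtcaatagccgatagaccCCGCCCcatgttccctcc
Ugt8a: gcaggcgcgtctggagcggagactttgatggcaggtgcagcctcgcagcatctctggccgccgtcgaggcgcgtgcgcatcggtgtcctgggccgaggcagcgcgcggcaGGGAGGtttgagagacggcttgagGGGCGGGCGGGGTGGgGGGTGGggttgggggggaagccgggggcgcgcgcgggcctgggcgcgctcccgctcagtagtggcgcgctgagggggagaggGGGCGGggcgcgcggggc
Gal3st1: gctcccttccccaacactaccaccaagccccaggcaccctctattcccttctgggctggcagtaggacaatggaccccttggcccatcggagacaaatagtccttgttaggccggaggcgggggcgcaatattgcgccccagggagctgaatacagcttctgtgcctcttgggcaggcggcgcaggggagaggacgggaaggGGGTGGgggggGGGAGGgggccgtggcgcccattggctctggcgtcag
Degs2: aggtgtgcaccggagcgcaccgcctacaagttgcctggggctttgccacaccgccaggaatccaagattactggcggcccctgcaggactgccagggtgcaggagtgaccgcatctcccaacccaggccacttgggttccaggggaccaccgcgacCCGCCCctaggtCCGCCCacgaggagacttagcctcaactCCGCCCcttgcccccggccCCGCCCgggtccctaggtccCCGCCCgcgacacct

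The Ugt8a window held 6 matches, that of Degs2 5 and those of Sptlc2 and Gal3st1 2 each. Of the 10 genes, 9 had at least 1 window in the RefSeq table, and each of their 15 windows held at least 1 match. Among all 32851 windows of this length 72.6% did so, with a median of 1 match against 2 in the 15 windows. The 15 windows were also richer in G and C, with a median of 65.6% against 52.4%. Degs2, which was not lower in the comparison below, had more matches than Sptlc2 and Gal3st1, which were. Ugt8a, which fell furthest of the 10 genes, had the most matches among the windows printed above. A relation between the number of matches and the fold change was not tested. Some windows of 1 gene share bases, as do those of Gal3st1. A match describes letters only, and KLF13 binding at these genes was not measured here.

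Each library held between 24507471 and 59596479 counts on genes. Klf13 itself (chromosome 7, 63886351 to 63938915 of GRCm38) ranged from 10670 to 12000 normalized counts among control libraries and from 802 to 961 among knockout libraries, so that every library matched its label. A normalized count here is a raw count corrected for its library's TMM-scaled depth and set to the average library. Oligodendroglial identity was visible in both groups: Sox10 and Olig2 were abundant and did not pass the test, while Mbp, Mag, Mog and Cnp were lower, with log2 fold changes from -3.32 for Mog to -0.96 for Cnp. The control libraries differed among themselves in other cells. Control replicate 3 had a summed level of 6 microglia markers, in normalized counts per kb of exon, of 28342 against 6045 to 6316 in the other controls. Control replicates 3 and 4 had 6765 and 5527 for 6 fibroblast and mural cell markers against 1901 and 1269 in replicates 1 and 2.

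Loss of KLF13 went along with lower transcript levels of 8 of the 10 synthesis genes. The 8 were Ugt8a, Cers2, Fa2h, Degs1, Sptlc2, Gal3st1, Sptlc1 and Sgms1, each passing edgeR's quasi-likelihood test at the study's limit of 0.05 for the adjusted p, and 12.2% of all tested genes were lower by this rule. None of the 10 was higher by this rule, against 11.6% of all tested genes, or by at least 1 log2 unit, against 3.97%. Only Ugt8a, at -1.25, also passed the study's threshold of 1 log2 unit, which 3.08% of all tested genes passed on the lower side. The median log2 fold change of the 10 genes was -0.71, against -0.0037 over all tested genes. For the same 8 genes the highest knockout library lay below the lowest control library, as it did for 18.0% of all tested genes. For none of the 10 did the knockouts lie wholly above the controls, as 18.3% of all tested genes did. Both genes that did not pass, Cers4 and Degs2, were the least abundant of the 10. In bulk RNA, fewer cells of a type and less RNA per cell cannot be told apart.

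**Figure D1:**
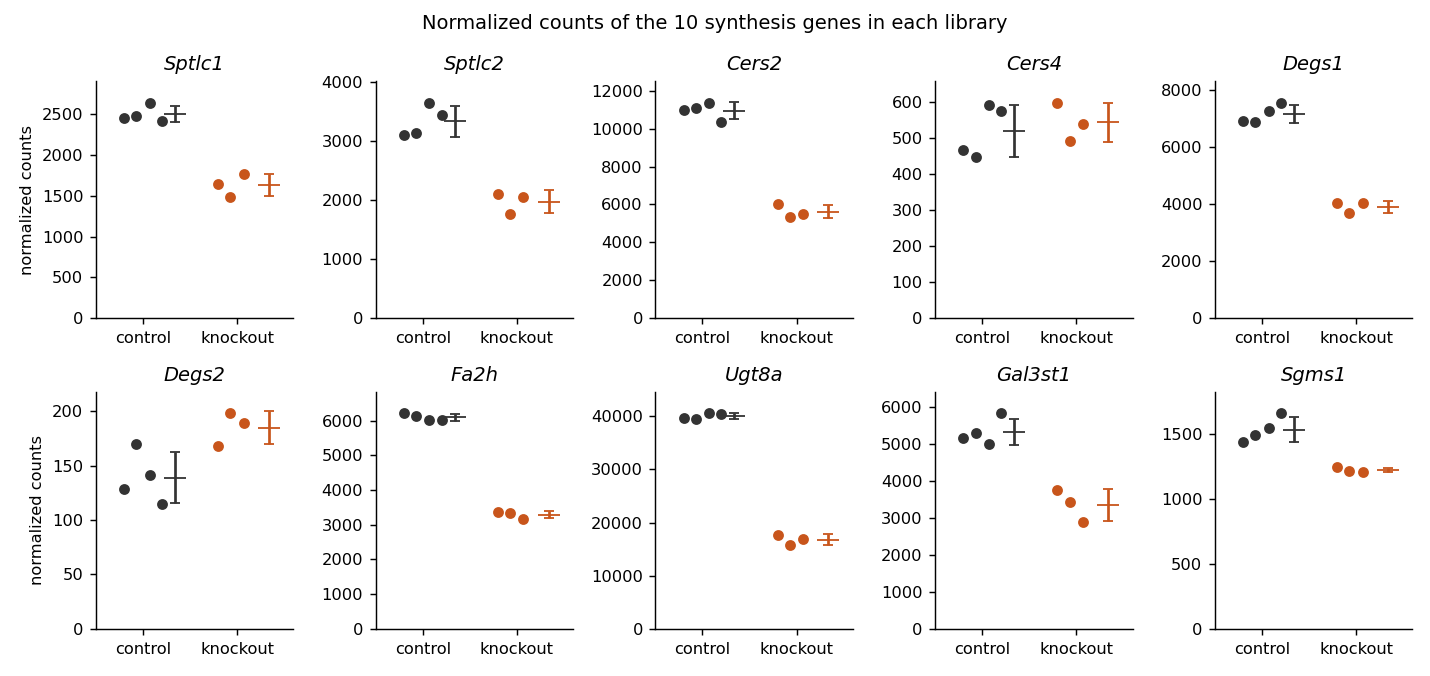
Normalized counts of each gene in the 4 control and 3 knockout libraries (vertical axes from 0, points in the order of the replicate numbers, bars the mean ± SD). The groups are apart for 8 genes, most widely for Ugt8a at about 40018 against 16804, and overlap for Cers4 and Degs2.

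Sptlc1 and Sptlc2 encode the large subunits of serine palmitoyltransferase, which catalyses the first and rate-limiting step. Sptlc1 (chromosome 13, 53332716 to 53377365) stood at 2457, 2482, 2642 and 2412 normalized counts in the control libraries, given in replicate order throughout, against 1639, 1488 and 1761 in those of the knockout. Sptlc2 (chromosome 12, 87305058 to 87388355) stood at 3096, 3126, 3644 and 3433 against 2105, 1754 and 2056. Each was lower in every knockout library than in any control. Sptlc1 fell by 0.62 on the log2 scale (SE, the standard error, 0.072, quasi-likelihood adjusted p = 0.0017 in edgeR) to 65.2% of its control mean. Sptlc2 fell by 0.75 (SE 0.090, edgeR, adjusted p = 0.00188) to 59.3%. As the proteins work as a pair, the ratio of their counts was compared within libraries, where scaling does not enter. The log2 ratio of Sptlc2 to Sptlc1 was 0.41 ± 0.091 (SD, n = 4) in the controls and 0.27 ± 0.076 (SD, n = 3) in the knockouts, with overlap between the groups (exact two-sided permutation test, p = 0.171, which is also its value adjusted over the 4 ratios tested). With 4 libraries against 3, this test cannot give a p below 0.0571.

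Ceramide synthases attach the second fatty acid, and each member of the family prefers certain chain lengths. Cers2, which makes ceramides with very long chains and is the main ceramide synthase of oligodendrocytes, lies on chromosome 3 from 95314791 to 95323599. It stood at 10973, 11108, 11373 and 10352 normalized counts in the control libraries against 6012, 5322 and 5522 in those of the knockout, with every knockout library far below the controls. Its log2 fold change was -0.96 (SE 0.063, quasi-likelihood adjusted p = 0.000126 in edgeR), leaving 51.3% of the control mean. The 95% confidence interval, from -1.11 to -0.82, includes the study's threshold of 1 log2 unit. Of its exon bases 5.96% are shared with 6330562C20Rik and Setdb1, both on the other strand.

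Cers4, on chromosome 8 from 4493026 to 4531680, takes part in ceramides with long and very long chains. It stood at 467, 449, 592 and 575 normalized counts in the control libraries against 599, 494 and 540 in those of the knockout. The groups overlapped, and the log2 fold change was 0.06, within 95% limits of -0.25 and 0.37 (quasi-likelihood adjusted p = 0.781 in edgeR). The sign of this small difference turned without control replicate 2, to -0.0042. The log2 ratio of Cers4 to Cers2 was -4.40 ± 0.22 (SD, n = 4) in control and -3.37 ± 0.054 (SD, n = 3) in knockout libraries, a difference of 1.03 without overlap between the groups (exact two-sided permutation test, p = 0.0571, the smallest it can give, and 0.0762 adjusted over the 4 ratios). Of its exon bases 8.97% are shared with Gm36956 and Vmn2r-ps89, both on the other strand. Its level per kb of exon was 0.0142 times that of Cers2 in the controls and 0.0290 times in the knockouts. The length counts all annotated exon bases, 12264 for Cers4 and 3676 for Cers2, so a ratio between genes depends on it.

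Set beside the other ceramide synthases, Cers2 was the most abundant in every library. It took 62.5%, 61.8%, 59.9% and 58.9% of the summed counts per kb of Cers1 to Cers6 in the control libraries against 48.7%, 43.9% and 47.7% without KLF13. The shares of Cers1, Cers5 and Cers6 were correspondingly larger, with means of 25.2%, 21.7% and 4.74% in the knockouts against 19.3%, 16.3% and 2.53% in the controls. On the log2 scale Cers5 fell by 0.18, while Cers1, Cers3 and Cers6 did not pass the test, at -0.20, -0.39 and 0.31. Of the exon bases of Cers1, 42.7% are shared with other genes, Gdf1 on the same strand and Upf1 on the other, so its share is uncertain. Without Cers1, Cers2 took 74.0% to 76.4% in the controls and 61.7% to 63.9% in the knockouts. These shares were looked at after the values were seen and were not tested.

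**Figure D2:**
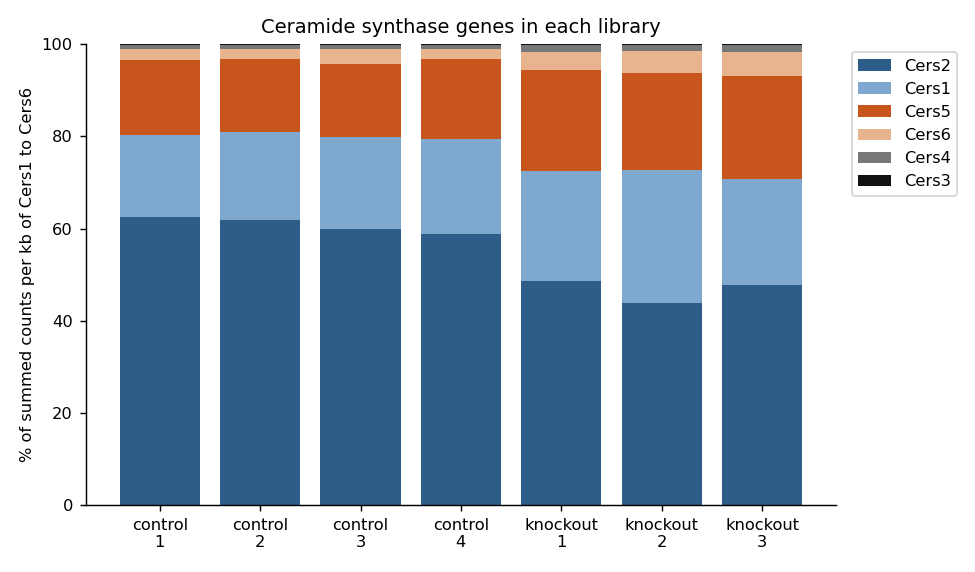
Share of each ceramide synthase gene in the summed normalized counts per kb of exon of Cers1 to Cers6 (vertical axis in percent, 1 bar for each library). Cers2 takes 58.9% to 62.5% in the control libraries and 43.9% to 48.7% in the knockout libraries.

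Dihydroceramide desaturases introduce the double bond that completes ceramide. Degs1, the general form of this enzyme, lies on chromosome 1 from 182275772 to 182282804. It stood at 6917, 6886, 7290 and 7572 normalized counts in the control libraries against 4048, 3679 and 4031 in those of the knockout. With knockout libraries close together and well below all controls, it fell by 0.87 on the log2 scale (SE 0.062, quasi-likelihood adjusted p = 0.000177 in edgeR), to 54.7% of the control mean.

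Degs2, a desaturase that can also hydroxylate its substrate and so yields phytoceramide, lies on chromosome 12 from 108686792 to 108702306. It stood at 128, 170, 142 and 115 normalized counts in the control libraries against 168, 198 and 189 in those of the knockout. Control replicate 2 lay just above the lowest knockout library, so that the groups overlapped narrowly. Its log2 fold change was 0.42, within 95% limits of 0.033 and 0.80 (quasi-likelihood adjusted p = 0.110 in edgeR). With the ribosomal RNA share of each library as a covariate the value was 0.54 and the gene passed (adjusted p = 0.0411, edgeR). It shares 13.6% of its exon bases with Evl on the other strand, and as the strand setting of the counting is not stated, its value is uncertain in that part. The log2 ratio of Degs2 to Degs1 was -5.70 ± 0.29 (SD, n = 4) in control and -4.41 ± 0.19 (SD, n = 3) in knockout libraries, 1.30 higher in the knockouts with no overlap (exact two-sided permutation test, p = 0.0571, the smallest it can give, and 0.0762 adjusted over the 4 ratios).

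Fa2h encodes fatty acid 2-hydroxylase, which supplies the 2-hydroxylated fatty acids typical of myelin galactolipids. The gene, on chromosome 8 from 111345135 to 111393824, stood at 6212, 6131, 6023 and 6016 normalized counts in the control libraries against 3373, 3332 and 3170 in those of the knockout. Among the 10 genes it had the smallest standard error, and its control values had a coefficient of variation of only 1.54%. Its log2 fold change was -0.89 (SE 0.048, quasi-likelihood adjusted p = 5.73e-05 in edgeR), which left 54.0% of the control mean.

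Ugt8a encodes the UDP-galactose ceramide galactosyltransferase that makes galactosylceramide. Located on chromosome 3 from 125865271 to 125938619, it was the most abundant of the 10 genes and the one that fell furthest. The controls had 39631, 39486, 40543 and 40413 normalized counts, a coefficient of variation of 1.34%. The knockouts had 17740, 15820 and 16852, all far below the lowest control, while the control SD was 537. The log2 fold change was -1.25 (SE 0.060, quasi-likelihood adjusted p = 3.99e-05 in edgeR), and 42.0% of the control mean remained. Of all tested genes, Ugt8a had the 28th smallest p.

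Gal3st1 encodes the sulfotransferase that turns galactosylceramide into sulfatide. On chromosome 11 from 3983636 to 3999326, it stood at 5166, 5304, 4996 and 5832 normalized counts in the control libraries against 3752, 3432 and 2880 in those of the knockout. The knockout libraries varied more here than for any other of the 10 genes, with a coefficient of variation of 13.2%, but all stayed below the controls. Its log2 fold change of -0.67 (SE 0.0996, quasi-likelihood adjusted p = 0.00456 in edgeR) was about that of Sptlc1, and 63.0% of the control mean remained.

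Sgms1 encodes a sphingomyelin synthase of the Golgi and lies on chromosome 19 from 32122727 to 32389714. It stood at 1433, 1492, 1541 and 1656 normalized counts in the control libraries against 1240, 1213 and 1209 in those of the knockout. The groups did not overlap, but the step between them was the smallest among the 8 genes that passed, with 79.8% of the control mean left. Its log2 fold change was -0.33 (SE 0.066, quasi-likelihood adjusted p = 0.0130 in edgeR). The call was lost without any 1 of the knockout libraries, with adjusted p from edgeR of 0.0609 without replicate 1, 0.0508 without replicate 2 and 0.0562 without replicate 3, and without both control replicates 3 and 4 (0.0528, edgeR), while the log2 fold change stayed between -0.35 and -0.26.

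**Figure D3:**
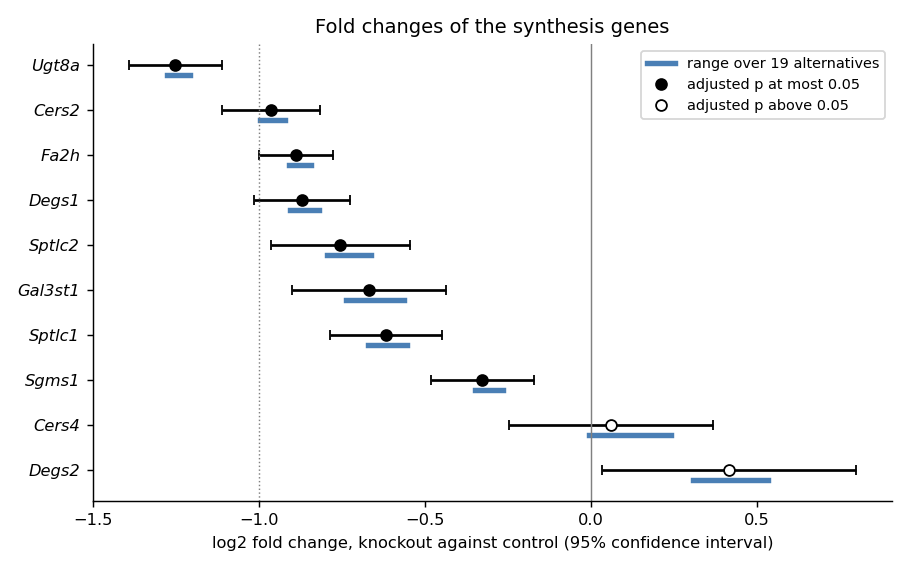
Log2 fold change of each gene (horizontal axis, points with 95% confidence intervals from edgeR) and the range of its value over 19 alternative settings (blue lines), with a dotted line at the study's fold threshold. Filled points have an adjusted p of at most 0.05, and values run from -1.25 for Ugt8a to 0.42 for Degs2.

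Ugt8a and Sgms1 use ceramide for different products, so their ratio was compared as well. The log2 ratio of Ugt8a to Sgms1 was 4.79, 4.73, 4.72 and 4.61 in the control libraries against 3.84, 3.71 and 3.80 in those of the knockout. The difference of the means was -0.93 on the log2 scale, with no overlap (exact two-sided permutation test, p = 0.0571, the smallest it can give, and 0.0762 adjusted over the 4 ratios). Per kb of exon (4536 bases for Ugt8a and 10299 for Sgms1), Ugt8a stood at 59.5 times the level of Sgms1 in the controls and 31.2 times in the knockouts. In every library the Ugt8a level was the higher of the pair.

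Levels between genes were compared as normalized counts per kb of exon, with all annotated exon bases of a gene as its length. In the controls Ugt8a led with 8822 ± 118 (SD, n = 4), followed by Cers2 with 2979 ± 118, Degs1 with 2766 ± 126, Gal3st1 with 2609 ± 177 and Fa2h with 2026 ± 31.3. Cers2 overlapped with Degs1 and Degs1 with Gal3st1, so these neighbours were not separated by their spread. Sptlc1 (959 ± 38.3), Sptlc2 (410 ± 32.2) and Sgms1 (149 ± 9.19) came next, each apart from its neighbours. Cers4 (42.5 ± 5.95) and Degs2 (38.8 ± 6.56) were lowest and overlapped. In the knockouts Ugt8a still led with 3705 ± 212 (SD, n = 3), but Gal3st1, with 1644 ± 216, now had the second highest mean before Cers2 with 1529 ± 96.5 and Degs1 with 1513 ± 80.4, and these 3 genes overlapped. Together the 10 genes took 0.169% to 0.180% of all counts on genes in the control libraries and 0.0858% to 0.0919% in the knockout libraries.

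**Figure D4:**
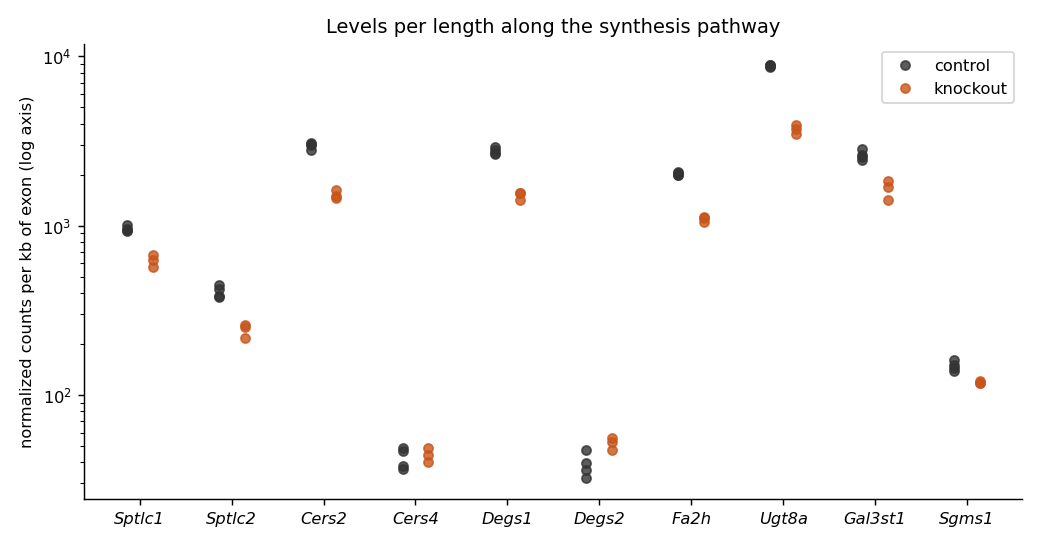
Normalized counts per kb of exon for each gene, ordered by pathway step (log axis, 1 point for each of the 4 control and 3 knockout libraries). Ugt8a is highest in both groups at means of 8822 and 3705, and Cers4 and Degs2 are lowest.

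The genes with the profile closest to the galactolipid enzymes were sought by the root mean square difference of log2 CPM, centred on each gene's mean, over the 7 libraries. Nearest to Ugt8a were Rell1 (0.033 log2 units), Plekha1 (0.038), which encodes an adaptor that binds a phosphoinositide, and Secisbp2l (0.054). Their log2 fold changes were -1.25, -1.25 and -1.31, each in edgeR. Nearest to Fa2h were Gramd3 (0.028), Prickle1 (0.030) and Fntb (0.054), the last a subunit of protein farnesyltransferase. Gal3st1 lay closest to Tmprss5 (0.051), Arid5a (0.057) and the small GTPase gene Arl2 (0.068). None of these 9 genes encodes an enzyme of the sphingolipid lists used here.

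A further 53 genes act around the 10, among them regulators of the first step, other synthases, carriers, breakdown enzymes and donors of sugar and sulfate. Of these, 50 were tested, 11 were lower and 2 higher by edgeR at the same limit of 0.05 (12.2% and 11.6% of all tested genes), and 37 did not pass. Their median log2 fold change was -0.17, against -0.71 for the 10 synthesis genes and -0.0037 for all tested genes. None of the 53 was lower by 1 log2 unit or more with such a p. Sptlc3, Sptssb and Acer1 had too few counts to be tested, with at most 27 in any library.

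Around serine palmitoyltransferase, 2 of 5 tested genes were lower, where 12.2% of all tested genes were. Ormdl2, whose product restrains the enzyme, fell by 0.39 on the log2 scale, and Kdsr, which encodes the reductase of the second step, by 0.32. Sptssa, a small activating subunit and the most abundant gene of this list per kb, had a log2 fold change of -0.08, within 95% limits of -0.23 and 0.07. Among the carriers and the enzymes of sphingomyelin, glucosylceramide and gangliosides, 3 of 11 were lower, against the same 12.2%. Gltp, encoding the glycolipid transfer protein, was the most abundant of these and fell from 23785 ± 2293 (SD, n = 4) to 12853 ± 517 normalized counts (SD, n = 3), a log2 fold change of -0.89 (quasi-likelihood adjusted p = 0.000726 in edgeR). The other two were Cert1, listed as Col4a3bp in the annotation, whose protein carries ceramide to the Golgi, at -0.41, and Sgms2, the sphingomyelin synthase of the plasma membrane, at -0.94.

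Among breakdown enzymes and those of sphingosine 1-phosphate, 4 of 23 tested genes were lower and 2 higher, where 12.2% and 11.6% of all tested genes were. Cerk, encoding ceramide kinase, fell by 0.63 on the log2 scale, and both Sgpp1 and Gm2a were lower as well. Galc and Arsa, whose enzymes degrade galactosylceramide and sulfatide, had log2 fold changes of -0.20 and -0.05 and did not pass (adjusted p = 0.374 and 0.738, edgeR). Psap, the most abundant gene of the list per kb and the source of the saposins, had -0.16, within 95% limits of -0.52 and 0.20. Sgpp2, a phosphatase of sphingosine 1-phosphate, rose by 1.13 on the log2 scale, the one gene of the 53 to pass both thresholds, but on 6 to 10 counts in the control and 12 to 29 in the knockout libraries. Smpd2, encoding a neutral sphingomyelinase, rose by 0.22. With the replicate number as a block, neither remained, and the numbers were 13 lower and 0 higher, beside 2042 lower and 1741 higher of all 18352 tested genes. Without knockout replicate 1 or 2, 7 of the 53 genes were lower instead of 11, while over all tested genes the number lower also went down, from 2246 to 1254 of 19047 and 1317 of 18604. Without control replicate 2 or 4 or knockout replicate 1 none of the 53 was higher.

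Of the genes that provide UDP-galactose and the sulfate donor, 1 of 7 was lower, a share near the 12.2% of all tested genes. Slc35a2, encoding the carrier of UDP-galactose into the Golgi, fell from 2113 ± 148 (SD, n = 4) to 1364 ± 63.2 normalized counts (SD, n = 3), by 0.63 on the log2 scale (quasi-likelihood adjusted p = 0.00168 in edgeR). Papss1, which makes the sulfate donor and was the most abundant here, had a log2 fold change of -0.04, within 95% limits of -0.19 and 0.10. Of the other ceramide synthases only Cers5 passed, and Cers1, the most abundant per kb, had -0.20 with an interval from -0.44 to 0.05. Ormdl2, Kdsr, Cert1, Sgms2, Cerk, Sgpp1, Gm2a, Galc, Arsa, Slc35a2, Smpd2 and Cers5 were singled out here after their values were seen.

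**Figure D5:**
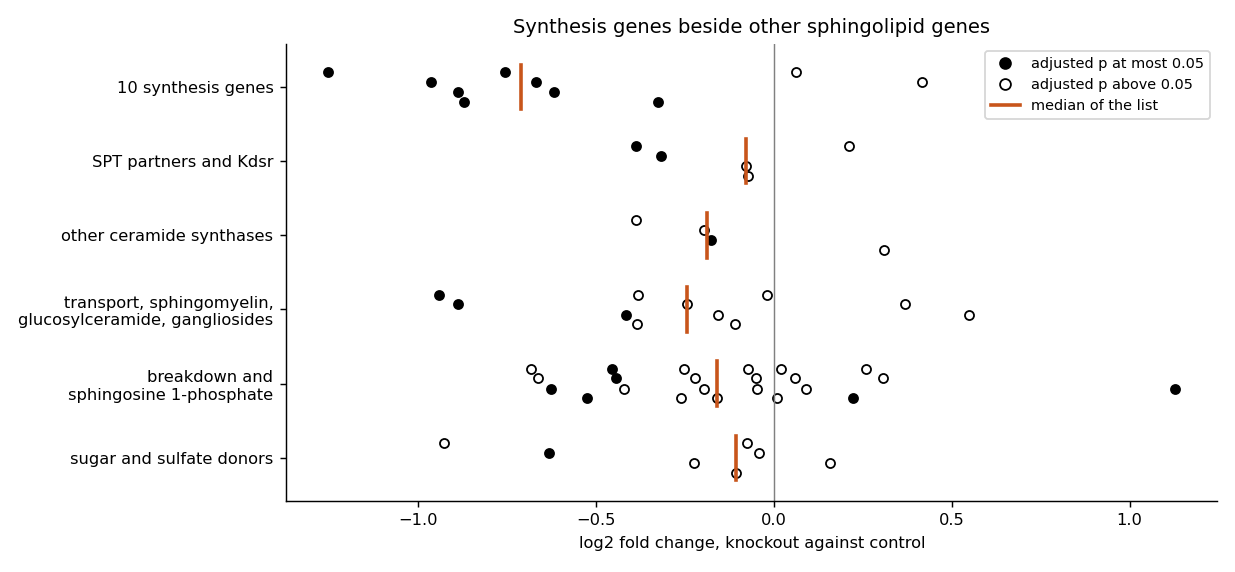
Log2 fold changes of the 10 synthesis genes and of the 50 tested genes in 5 lists around them (horizontal axis, 1 point per gene, filled where the adjusted p from edgeR is at most 0.05, vertical lines at the medians). The median is -0.71 for the synthesis genes and lies between -0.24 and -0.08 for the other lists.

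Markers of other cells moved between the groups as well. All 6 astrocyte markers were higher in the knockout, with a summed level of 20563 to 28252 normalized counts per kb in the controls and 40382 to 48003 in the knockouts. All 6 neuron markers were higher too, at 2312 to 2888 against 4121 to 6281. None of the 6 microglia markers passed, and the sums were 6045 to 28342 and 5962 to 11424. Of 6 fibroblast and mural cell markers, 1 was lower, with sums of 1269 to 6765 and 504 to 1352. Of 4 OPC markers, 2 were higher, at 6453 to 7399 against 7811 to 8742. The 7 oligodendrocyte markers, 5 of them lower, summed to 176836 to 208173 in the controls and 57422 to 64610 in the knockouts. Schwann cells also make galactolipids, and their 4 markers summed to 88.5 to 105 in the controls and 21.8 to 27.2 in the knockouts. All 4 averaged fewer than 100 normalized counts over the 7 libraries. The gap between the sums lay mainly in Pmp2, the 1 marker that was lower, while Prx and Ncmap overlapped between the groups. Pmp2 stood at 110 ± 11.2 (SD, n = 4) normalized counts in the controls and 12.8 ± 4.80 (SD, n = 3) in the knockouts. The part of these other cells in the result was not tested. Without control replicates 3 and 4, an alternative added after seeing the data, 7 of the 10 synthesis genes were lower and 0 higher, and the 1 that no longer passed was Sgms1. Of all 18816 genes tested in that fit, 1489 were lower and 1177 higher.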

How the data were processed

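RNA-seq libraries from 4 wildtype control and 3 Klf13-knockout cultures were analysed. The authors trimmed reads with Trimmomatic 0.36, mapped them to the ENSEMBL mouse genome (GRCm38 in the submitters' processing notes) with STAR 2.5.2b and deposited unique hits within exons, counted with Subread 1.5.2, as raw counts per gene without normalization. The strand setting and the annotation release are not given in the sources used here. Symbols were found for 48970 of the 49315 genes in a table of gene names.

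All counts were fitted in R 4.3.3 with edgeR 4.0.16 (filterByExpr, TMM factors, robust quasi-likelihood test, group as the only term), with Benjamini-Hochberg adjustment over 18352 genes. The study itself used DESeq2's Wald test, kept here as an alternative (version 1.42.0) beside limma 3.58.1. The standard error is the log2 fold change divided by the root of the F statistic. The test was checked on simulated counts. Ratios were compared with the exact permutation test of scipy 1.17.1. Log2 CPM used a prior count of 2. Depth was 24507471 to 59596479 counts per library, and deeper libraries give less counting error.

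The genes and lists were chosen with earlier results of these data known. Named were the 10 genes, Klf13, the genes of each list past both thresholds (adjusted p of 0.05, 1 log2 unit), the most abundant gene of each list per kb and the 3 nearest profiles of Fa2h, Gal3st1 and Ugt8a. The main tests did not pair libraries, and only the replicate block, an alternative, took the same replicate number as a pair. Within the 3 pairs, deviations from the group means correlated at 0.11, 0.46 and 0.17 across genes. Libraries with different numbers correlated at -0.53 to 0.20, so that pairs 1 and 3 lay within that range. Control replicate 4 has no partner, so that it does not inform the group difference in the block fit. Every pair of libraries within a group differed by more than counting noise. Single values of some listed genes are not reported here.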

Additional observations from a re-analysis of the deposited data

How the results depend on the processing

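Alternatives were DESeq2 size factors, upper quartile factors, total counts, TMM without the ribosomal RNA-collecting genes, leaving the filter out, requiring 10 counts per library, DESeq2's Wald test, limma voom, no robust estimation, the replicate block, the ribosomal RNA share as a covariate, each library left out, and both control replicates 3 and 4 left out. Log2 fold changes of Ugt8a, Cers2, Fa2h, Degs1, Sptlc2, Gal3st1 and Sptlc1 kept their direction and passed in all 19. Sgms1 kept its direction in all 19 and passed in 15. Between 7 and 8 of the 10 genes were lower with each library left out, 1 was lower by 1 log2 unit or more, and 0 were higher, where over all tested genes 1254 to 2032 were lower and 850 to 1843 higher. The share of all tested genes lower by 1 log2 unit or more, 3.08% in the main fit, was not counted in these fits. With that covariate, 1 of the 10 was higher (Degs2), and 5 of the 53 other pathway genes were higher, as were 2673 of all 18352 tested genes against 2122 without it. Cers4 reversed without control replicate 2, to -0.0042, and with each library left out ran from there to 0.13. The count of other pathway genes that were higher was 2 in the main analysis, where 2122 of all 18352 tested genes were. It was 1 with upper quartile factors (2263 of all tested genes higher) and with total counts (1870). With TMM without the ribosomal RNA-collecting genes (1916), with no filter (1535 of 34026) and with at least 10 counts (2093 of 15545) it was also 1. Without control replicates 3 and 4 (1177 of 18816) it was 1 as well, and with the replicate block (1741) it was 0. With each library left out, this count ran from 0 to 3, and that of the lower ones from 7 to 11. The counts over all genes in these fits are given above. The cause was not tested.

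With the replicate number as a block, 8 of the 10 genes were lower and 1 of them by 1 log2 unit or more, and 0 were higher, beside 2042 lower and 1741 higher of all 18352 tested genes. The share of all tested genes lower by 1 log2 unit or more was not counted in the block fit either. No call among the 10 genes changed with the block. The log2 ratios within pairs changed by -0.10 for Sptlc2 to Sptlc1, 1.11 for Cers4 to Cers2, 1.19 for Degs2 to Degs1 and -0.96 for Ugt8a to Sgms1. For a ratio, the mean over the pairs equals the difference without control replicate 4, so it is no separate check. With each library left out, the 4 differences stayed between -0.18 and -0.10, 0.96 and 1.11, 1.19 and 1.42, and -0.96 and -0.89. The scalings moved the median of all genes by less than 0.1 log2 units. Low counts limit the precision for Degs2, with 93 to 288 per library, and for Sgpp2, with 6 to 29.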
